A study of Xenopus laevis with 20 samples.

Results

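Early neuronal differentiation was followed through 6 genes of the African clawed frog Xenopus laevis: neurog2, neurod4, myt1, elavl3, tubb2b and snap25. They were taken by name, as every probe set whose annotated symbol, with the final .L or .S removed, was one of these. The endings mark the homeologs, the paired copies that each gene can have in this allotetraploid frog. The names gave 8 symbols and 10 probe sets, out of 6505 genes, 7531 symbols and 15491 gene probe sets on the array. The RefSeq gene table lists 11 homeologs of the 6 genes, and 8 of them had a probe set; tubb2b.L, neurod4.S and myt1.L had none used here.

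Primary neurons form early in the open neural plate of the frog, in stripes and clusters picked out by proneural transcription factors of the basic helix-loop-helix class. neurog2 acts at the top of this cascade, Notch signalling between neighbouring cells limits how many cells follow it, and myt1 and neurod4 act with or after it. Cells that leave the progenitor state then make RNA-binding proteins such as elavl3, neuronal tubulin and the machinery of transmitter release. The cells of the eye field, where the homeobox gene Xrx1 (now named rax) is active, are kept proliferating while primary neurons appear elsewhere in the plate.

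The study measured whole early neurulae (stage 13) on 20 single-colour Affymetrix arrays, with RNA of 3 embryos on each per the sample labels but of single embryos in the series' design text. The arrays labelled Xrx1 mRNA, 5 in number, held embryos given capped Xrx1 mRNA with mRNA of green fluorescent protein (GFP) as tracer, and 5 labelled morpholino held embryos given an antisense morpholino against Xrx1 with the same tracer, each into both dorsal blastomeres at the 4-cell stage. The other 10 were labelled uninjected controls, numbered 1 to 10, so by their labels they lack the tracer and the injection as well as the Xrx1 reagent. Doses conflict between the sources. Xrx1 mRNA is given as 50 pg and as 50 ng, its GFP tracer as 400 pg and as 400 ng, and the morpholino as 1 pM, as 10 pg and as 0.5 pmol. The labels do not tie arrays to separate clutches, so a p-value here speaks only of the spread among arrays, which may be technical.

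The tracer went against the label on 8 of the 20 arrays. A control probe set that reads the tracer, AFFX-Xl-M62653-1_s_at, stood at 13.12 to 14.51 on the log2 scale in the mRNA arrays and at 3.04 to 3.32 in controls 1 to 5. In the other arrays it was at 13.84 to 14.51 in labelled controls 6 to 9 and at 2.80 to 2.95 in arrays labelled morpholino 1 to 4; only labelled morpholino 5, at 14.82, and labelled control 10, at 2.89, fitted their labels. The target gene was read by several probe sets: rax.L was at 3.09 to 5.23 in the mRNA arrays and at 6.68 to 8.38 in controls 1 to 5, and 1 rax.S probe set at 5.53 to 7.65 in the mRNA arrays and at 4.72 to 5.68 in controls 1 to 5. The other rax.S probe set was at 2.91 to 4.42 in the mRNA arrays and at 4.15 to 6.03 in controls 1 to 5. Across the second set the rax.L level was 3.73 to 5.38 in the 5 arrays with the tracer and 6.45 to 7.21 in the 5 without it, so it was split by the tracer and not by the label. The rax.S probe sets overlapped there. The first was at 3.00 to 3.23 with the tracer and 3.20 to 4.97 without it, and the other at 3.19 to 3.44 with it and 3.31 to 4.79 without it. A morpholino need not lower its target's RNA. No direction is therefore settled for a comparison that uses labelled controls 6 to 9 or labelled morpholino 1 to 4. In order of deposit the arrays form a first set (mRNA 1 to 5 and controls 1 to 5) and a second set (labelled morpholino 1 to 5 and labelled controls 6 to 10); no source records these sets as a batch.

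Tests were run on the 10435 probe sets with log2 values above 4 on 5 or more arrays. Of the 10 probe sets of the neuronal differentiation genes, 5 passed, 1 each for neurog2.S, myt1.S, elavl3.L, tubb2b.S and snap25.L. The other 5 ran from 1.87 to 3.82 over all arrays and were above 4 in 0 of 20 arrays: neurod4.L, neurog2.L, the second probe set of neurog2.S and both of snap25.S. Whole embryos give 1 further limit: fewer neurons and less RNA per neuron cannot be told apart. A probe set called here has a Benjamini-Hochberg adjusted p under 0.05 in limma's moderated test, ± gives the SD of a level over arrays or the SE of a difference, and levels of different probe sets were not set against each other.

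**Figure D1:**
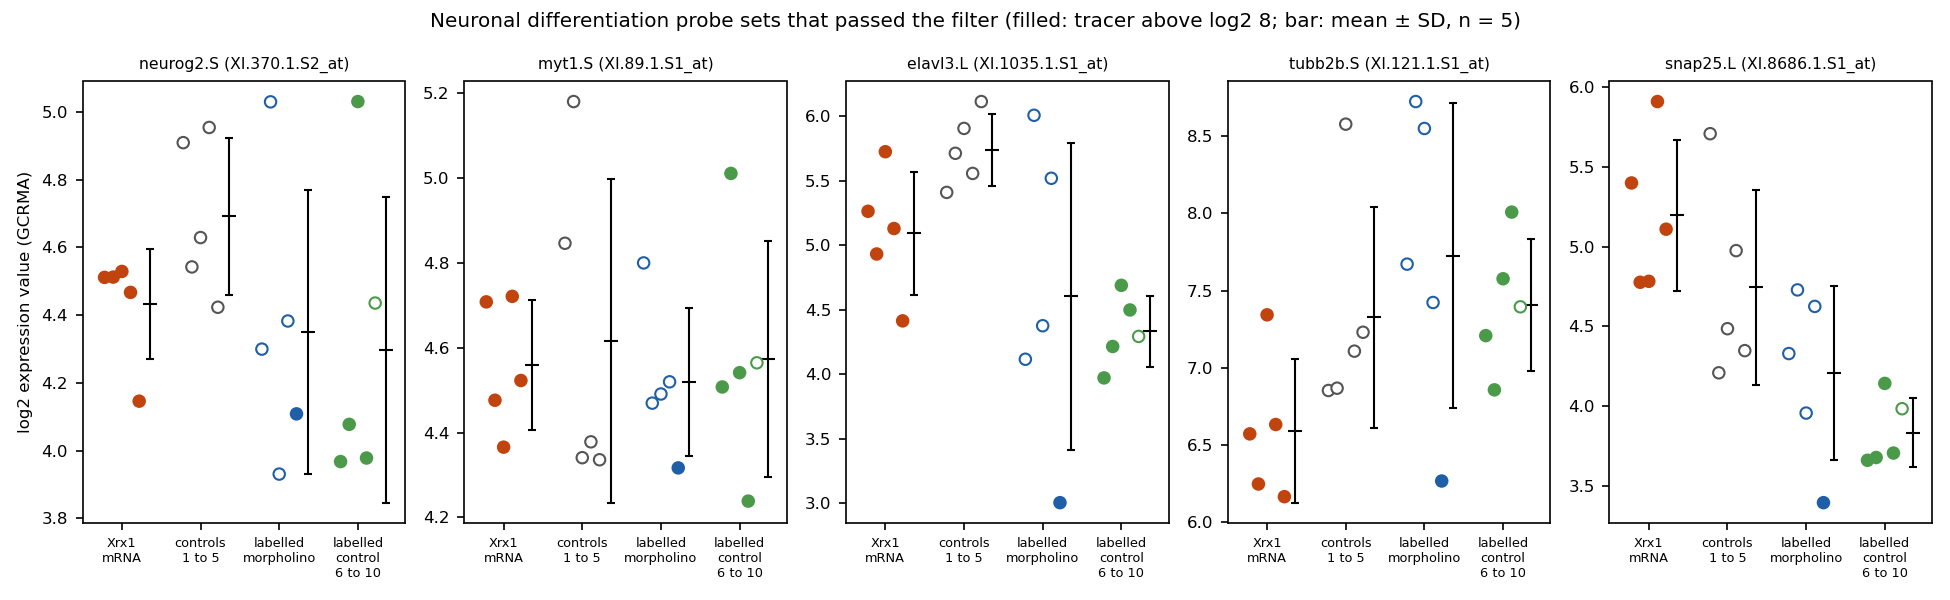
Each panel plots 1 probe set that passed the filter, with the log2 value of each array on the vertical axis (the scales differ between panels), filled where the tracer was above log2 8; the bars are the mean ± SD of 5 arrays. In the elavl3.L and tubb2b.S panels 4 of the 5 mRNA arrays lie below all of controls 1 to 5 and array 3 lies among them, and labelled controls 6 to 10 lie below all of controls 1 to 5 in the elavl3.L and snap25.L panels.

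Set against controls 1 to 5, the embryos given Xrx1 mRNA had lower elavl3.L, tubb2b.S and neurog2.S in every same-number pair and higher snap25.L in 4 of 5 pairs, but no neuronal differentiation gene passed the test. limma called 0 of the 5 tested genes, and 0% of all 10435 probe sets, although 812 had an unadjusted p under 0.05, elavl3.L among them. Pairing by number is an assumption here, since the labels record no pairs. After removal of group means the arrays of a number correlated at 0.226 to 0.634, above 0.1 in 5 of 5 pairs. The same-number match was the best one in 4 of the 5. It was also the best in 4 of 5 for arrays labelled morpholino with controls 1 to 5, which come from different sets. The check therefore does not settle the pairing, and results by pair depend on the assumption. With the pair as a block, limma called 7 probe sets, 0.0671% of those tested, again with 0 of the 5 genes, and 4 of the 5 had an unadjusted p under 0.05, as did 1528 of all 10435. A lower value in every pair was shared by 3 of the 5 genes and by 5.63% of all tested probe sets, and a higher value in every pair by 0 of the 5 and by 7.89% of all. All mRNA arrays lay below all of controls 1 to 5 for 0 of the 5 genes and for 0.412% of probe sets. The genes were chosen with earlier results of these data known, so that contrast is a description.

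neurog2, the proneural factor that starts primary neurogenesis, was read best by 1 neurog2.S probe set. It stood at 4.51, 4.51, 4.53, 4.47 and 4.15 in mRNA arrays 1 to 5, against 4.91, 4.54, 4.63, 4.95 and 4.42 in controls 1 to 5. The mRNA arrays sat in the lower part of the control range or, in array 5, below it, so the groups overlapped. The difference was -0.26 ± 0.14 (95% interval -0.56 to 0.05, adjusted p = 0.668), and the pair differences ran from -0.49 to -0.03, with an adjusted p of 0.340 in the paired fit. The second neurog2.S probe set was at 3.00 to 3.24 in the mRNA arrays and 3.04 to 3.82 in controls 1 to 5, under the filter, and neurog2.L was at 2.13 to 2.24 in the mRNA arrays and 2.14 to 2.20 in controls 1 to 5. The 2 probe sets of neurog2.S correlated at 0.47 over the 20 arrays, a description over arrays that share the set difference given further on.

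neurod4.L, a basic helix-loop-helix factor that follows neurog2 in the cascade, was at 1.94 to 2.06 in the mRNA arrays and at 1.97 to 2.11 in controls 1 to 5. Both ranges overlap and lie well under the filter level. myt1.S encodes a zinc finger factor that lets neurog2 act despite Notch signalling. Its values were 4.71, 4.48, 4.37, 4.72 and 4.52 in mRNA arrays 1 to 5, against 4.85, 5.18, 4.34, 4.38 and 4.34 in controls 1 to 5. Controls 1 and 2 were high and the other 3 low, with the mRNA arrays between and among them. The difference was -0.06 ± 0.18 (95% interval -0.45 to 0.34, adjusted p = 0.968), and 3 pairs were higher and 2 lower; without control 2 it was 0.08.

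elavl3.L encodes HuC, an RNA-binding protein made as cells become neurons. It was at 5.26, 4.93, 5.72, 5.13 and 4.41 in mRNA arrays 1 to 5, against 5.41, 5.71, 5.91, 5.56 and 6.11 in controls 1 to 5. Of the mRNA arrays, 4 lay below all controls and array 3 lay inside their range. The level averaged 5.09 ± 0.48 in mRNA arrays and 5.74 ± 0.28 in controls 1 to 5 (SD, n = 5 each). The difference was -0.65 ± 0.23 (95% interval -1.15 to -0.14 without adjustment, limma adjusted p = 0.635, and 0.312 in the paired fit). The pairs were unequal, from -0.15 in pair 1 to -1.70 in pair 5, and leaving out 1 pair at a time gave -0.77 to -0.38, with the smallest size when pair 5 was out.

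tubb2b.S, a neuronal beta-tubulin long used in the frog as a marker of differentiated primary neurons, was at 6.57, 6.25, 7.34, 6.63 and 6.17 in mRNA arrays 1 to 5, against 6.85, 6.87, 8.58, 7.11 and 7.23 in controls 1 to 5. The array numbered 3 was the highest of its group on both sides, and the other 4 mRNA arrays lay below all controls. The difference was -0.73 ± 0.34 (95% interval -1.48 to 0.01, adjusted p = 0.647). Within pairs it ran from -1.23 in pair 3 to -0.28 in pair 1, and the paired fit gave -0.73 ± 0.16 (95% interval -1.10 to -0.37 without adjustment, limma adjusted p = 0.247). Leaving out 1 pair at a time gave -0.85 to -0.61, with adjusted p from 0.160 to 0.582. In the unpaired fit, leaving out control 3, its highest array, gave -0.42 (adjusted p = 0.783).

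snap25.L encodes a protein of the membrane fusion machinery of synapses and lay the other way. It was at 5.40, 4.78, 4.78, 5.91 and 5.11 in mRNA arrays 1 to 5, against 5.71, 4.21, 4.49, 4.97 and 4.35 in controls 1 to 5. Control 1 lay among the highest mRNA arrays, and the other 4 controls reached no further than 4.97, so the groups overlapped. The difference was 0.45 ± 0.31 (95% interval -0.23 to 1.13, adjusted p = 0.732, and 0.332 in the paired fit). It was 0.27 without mRNA array 4 and 0.69 without control 1, the highest array of each group. The 2 snap25.S probe sets stayed low, at 2.74 to 2.99 and 2.43 to 2.76 in the mRNA arrays and 2.68 to 2.77 and 2.34 to 2.49 in controls 1 to 5. They did not track each other over the 20 arrays (r = -0.06).

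**Figure D2:**
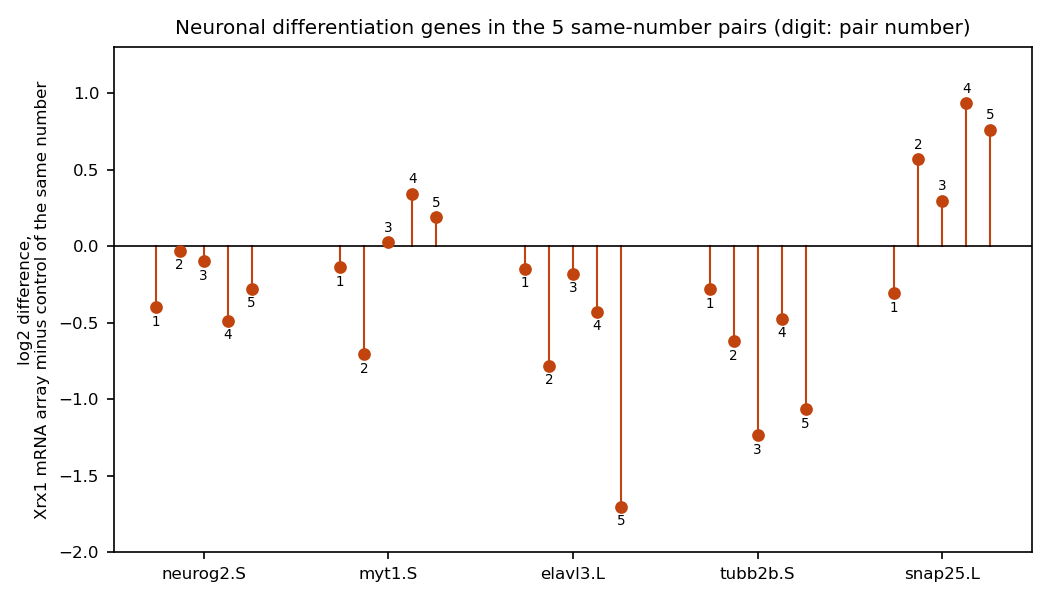
Each point is the log2 value of an mRNA array minus that of the control of the same number, for the 5 tested genes, with the pair number beside it. All points for neurog2.S, elavl3.L and tubb2b.S lie below 0, with elavl3.L in pair 5 at -1.70, and snap25.L lies above 0 in 4 of 5 pairs.

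**Figure D3:**
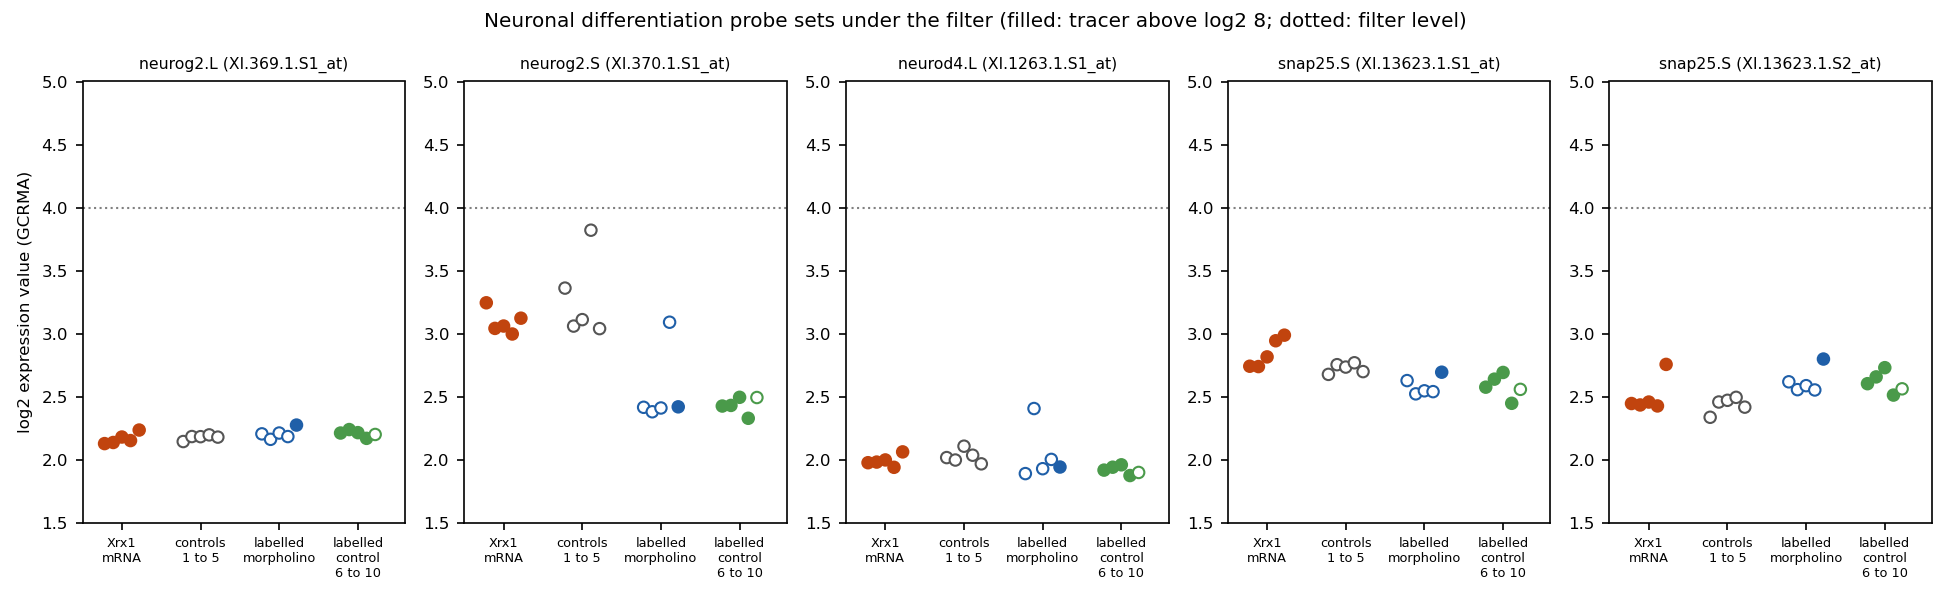
Log2 values of the 5 probe sets under the filter in each array, filled where the tracer was above log2 8, with a dotted line at the filter level of 4. The highest point is control 4 for neurog2.S at 3.82, and neurog2.L and neurod4.L stay between 1.87 and 2.41.

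A measure of RNA quality moved with 3 of these genes in the first set. The mean gap between the 3′ and 5′ control probe sets for 4 transcripts of actin and Gapd, which widens as RNA is degraded or copied less far, was 1.80 to 3.92 log2 units in the mRNA arrays and 0.32 to 3.00 in controls 1 to 5. Over the 10 arrays of the first set it correlated with elavl3.L at -0.80 (Spearman -0.71, and -0.77 by Pearson without the 2 arrays farthest from the median gap), with tubb2b.S at -0.51 (Spearman -0.58, and -0.75 without 2 arrays) and with snap25.L at 0.78 (Spearman 0.83, and 0.58 without 2 arrays). Over the second set the same correlations were 0.42, 0.05 and 0.52. Without the 2 arrays farthest from its median gap they were 0.01, 0.08 and 0.11. For neurog2.S the correlation was -0.008 in the first set and 0.008 in the second. These are descriptions over arrays that differ in treatment as well as in quality, with relations chosen after their values were seen, and the part of RNA quality in the differences was not tested. In pair 1 the gap was 2.50 in the mRNA array and 3.00 in the control, and in pair 4 it was 2.94 in the mRNA array and 2.96 in the control. In pair 3 it was 1.80 in the mRNA array and 1.29 in the control. In pairs 1, 3 and 4, the nearest in quality, elavl3.L differed by -0.15, -0.18 and -0.43, tubb2b.S by -0.28, -1.23 and -0.48, and snap25.L by -0.31, 0.30 and 0.93 (mRNA array minus control). In pairs 2 and 5 the gap was 2.24 and 3.92 in the mRNA arrays and 0.32 and 0.63 in the controls, and elavl3.L differed by -0.78 and -1.70, tubb2b.S by -0.62 and -1.06, and snap25.L by 0.57 and 0.76.

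The other genes of the neuronal cascade did not share 1 direction. A list of other proneural and neuronal differentiation genes had 42 genes measured and 14 tested; 0 were called between mRNA arrays and controls 1 to 5, with 4 at an unadjusted p under 0.05 in limma, and 7 lay above 0 and 7 below. Their median difference was 0.00, beside 0.03 over all tested probe sets. Of all 10435 tested probe sets 812 had an unadjusted p under 0.05 in this fit, and the lists were chosen with earlier results known. The gene nearest the threshold was insm1.L, a zinc finger factor of neuronal and endocrine differentiation, at 0.73 ± 0.17 (adjusted p = 0.635), and in the paired fit irx3.L, an Iroquois factor of the neural plate, at -0.64 ± 0.15 (adjusted p = 0.263). Of 22 tested Notch pathway genes 0 were called, with 4 at an unadjusted p under 0.05, 14 above 0 and a median of 0.11. hes1.S, a Notch target, was at -0.43 ± 0.16 (adjusted p = 0.635), and hes4.S at 0.54 ± 0.16 in the paired fit (adjusted p = 0.300). Of 26 tested neural plate progenitor genes 0 were called, with 11 at an unadjusted p under 0.05, 16 above 0 and a median of 0.06; zic2.L, a zinc finger factor of the plate, was at 0.54 ± 0.11 (adjusted p = 0.635) and otx2.L, a head factor, at -1.05 ± 0.15 in the paired fit (adjusted p = 0.0947).

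The labelled controls of the second set stood lower than those of the first for 2 neuronal genes. elavl3.L was at 3.97, 4.21, 4.69, 4.50 and 4.29 in labelled controls 6 to 10, against 5.41 to 6.11 in controls 1 to 5, and snap25.L was at 3.66, 3.68, 4.14, 3.71 and 3.98 in labelled controls 6 to 10, against 4.21 to 5.71 in controls 1 to 5. For both genes every labelled control of the second set was below every control of the first, which held for 2 of the 5 tested genes and for 6.4% of all tested probe sets; 17.2% were apart in either direction. The second neurog2.S probe set, under the filter, was likewise apart, at 2.33 to 2.49 in labelled controls 6 to 10. In controls 1 to 5 it was at 3.04 to 3.82. neurod4.L, also under the filter, was at 1.87 to 1.96 in the former and 1.97 to 2.11 in the latter. A snap25.S probe set was apart the other way, at 2.51 to 2.73 in the former and 2.34 to 2.49 in the latter. The other snap25.S probe set and neurog2.L overlapped. The tested neurog2.S probe set overlapped as well. It was at 3.97 to 5.03 in labelled controls 6 to 10 and 4.42 to 4.95 in controls 1 to 5. tubb2b.S also overlapped, at 6.86 to 8.01 in labelled controls 6 to 10 and 6.85 to 8.58 in controls 1 to 5, and so did myt1.S, at 4.24 to 5.01 in labelled controls 6 to 10 and 4.34 to 5.18 in controls 1 to 5. The same arrays differed for cells of another type: the mean level of 13 multiciliated cell genes was 6.81 to 7.34 in labelled controls 6 to 10 and 6.12 to 6.33 in controls 1 to 5, and their part in the shift was not tested. Since 4 of the labelled controls of the second set carried the tracer, injection and set are mixed in this contrast. Labelled control 10, the 1 without it, was also below all of controls 1 to 5, at 4.29 for elavl3.L and 3.98 for snap25.L. Labelled morpholino 1 to 4, also of the second set and without the tracer, were at 4.12, 6.01, 4.37 and 5.52 for elavl3.L. For snap25.L they were at 4.33, 4.73, 3.96 and 4.63, so for both genes some lay inside the range of controls 1 to 5. The parts of injection and set were not tested.

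Set against all 10 controls, the mRNA arrays differed most in snap25.L and tubb2b.S, and again no gene passed the test. limma called 0 of the 5 tested genes and 0% of all tested probe sets, with 2 of the 5 and 2124 of all at an unadjusted p under 0.05. snap25.L averaged 5.19 ± 0.47 in the mRNA arrays (n = 5) and 4.29 ± 0.65 in all controls (n = 10), a difference of 0.90 ± 0.30 (95% interval 0.28 to 1.53, limma adjusted p = 0.123). It is the 1 gene whose call turned with the choice of controls. Labelled controls 6 to 10 had snap25.L at 3.66 to 4.14, near the filter level of 4. Against them alone it was called, at 1.36 ± 0.26 with a limma adjusted p of 0.00137. That fit called 30.3% of all tested probe sets. Against controls 1 to 5 snap25.L was at 0.45. Leaving out control 1, its highest control, gave 1.06 with an adjusted p of 0.0258, in a fit that called 5.53% of probe sets.

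For tubb2b.S the choice of controls mattered little to the size: -0.78 ± 0.34 against all controls (95% interval -1.49 to -0.07, adjusted p = 0.205) and -0.82 ± 0.39 against labelled controls 6 to 10 alone (adjusted p = 0.124). elavl3.L had 0.06 ± 0.43 against all controls (95% interval -0.83 to 0.95, adjusted p = 0.956), since it was -0.65 against controls 1 to 5 and 0.76 against labelled controls 6 to 10. neurog2.S was at -0.06 ± 0.20 (95% interval -0.47 to 0.35) and myt1.S at -0.04 ± 0.15 (95% interval -0.34 to 0.27). With the set as a block, elavl3.L, tubb2b.S and snap25.L were at -0.65, -0.73 and 0.45, with limma adjusted p of 0.763, 0.731 and 0.793. In that fit 0 genes were called. By design these are the differences from controls 1 to 5, since all mRNA arrays lie in the first set.

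The arrays labelled morpholino scattered more than any other group in elavl3.L and tubb2b.S. elavl3.L was at 4.12, 6.01, 4.37, 5.52 and 3.00 in arrays labelled morpholino 1 to 5, against 3.97 to 6.11 in all 10 controls (median 5.05). tubb2b.S was at 7.67, 8.72, 8.55, 7.42 and 6.27 in the labelled morpholino arrays, against 6.85 to 8.58 in all controls (median 7.22). Labelled morpholino 5, the 1 array of the group with the tracer, was the lowest of all 20 for elavl3.L, and labelled morpholino 2, without it, was the highest of all 20 for tubb2b.S. The SD of elavl3.L was 1.19 in the labelled morpholino arrays and 0.79 in all controls. The other tested genes spread less: neurog2.S was at 4.30, 5.03, 3.93, 4.38 and 4.11 in arrays labelled morpholino 1 to 5, against 3.97 to 5.03 in all controls (median 4.49). snap25.L was at 4.33, 4.73, 3.96, 4.63 and 3.40 in the labelled morpholino arrays, against 3.66 to 5.71 in all controls (median 4.18), and myt1.S at 4.80, 4.47, 4.49, 4.52 and 4.32, against 4.24 to 5.18 in all controls (median 4.52). All these ranges overlapped, and labelled morpholino 5 was the lowest of its group for elavl3.L, tubb2b.S, snap25.L and myt1.S.

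limma called 0 of the 5 tested genes between the labelled morpholino arrays and all controls, and 0% of all tested probe sets, with 0 of the 5 and 928 of all at an unadjusted p under 0.05. The differences were -0.43 ± 0.43 for elavl3.L (95% interval -1.32 to 0.46, adjusted p = 0.773) and 0.36 ± 0.34 for tubb2b.S (95% interval -0.35 to 1.07, adjusted p = 0.766). neurog2.S was at -0.14 ± 0.20 (95% interval -0.55 to 0.26), snap25.L at -0.08 ± 0.30 (95% interval -0.71 to 0.54) and myt1.S at -0.08 ± 0.15 (95% interval -0.38 to 0.23). Single arrays also set the size: elavl3.L was -0.78 without labelled morpholino 2, -0.66 without 4 and -0.03 without 5, and tubb2b.S was 0.11 without labelled morpholino 2, 0.15 without 3 and 0.72 without 5. Signs turned with the controls: within the second set alone, elavl3.L was at 0.27 and snap25.L at 0.37. Without the 8 arrays whose tracer goes against the label, the controls left are 1 to 5 of the first set and labelled control 10 of the second. elavl3.L was at 5.41 to 6.11 in controls 1 to 5 and at 4.29 in labelled control 10. Set and label are therefore mixed in this fit, and their parts were not tested. Labelled morpholino 5, of the second set and at 3.00, alone is left of its group. elavl3.L was then called, at -2.50 with an adjusted p of 0.0316 in a fit that called 4.74% of probe sets and that assumes this array varies like the other groups.

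Within the second set the tracer gives another way to read the neuronal genes, as ranges only. elavl3.L was at 3.00 to 4.69 (median 4.21) in the 5 arrays with the tracer and at 4.12 to 6.01 (median 4.37) in the 5 without it. tubb2b.S was at 6.27 to 8.01 (median 7.21) with the tracer and at 7.40 to 8.72 (median 7.67) without it, and snap25.L at 3.40 to 4.14 (median 3.68) with it and 3.96 to 4.73 (median 4.33) without it. neurog2.S had a range of 3.97 to 5.03 (median 4.08) with the tracer and of 3.93 to 5.03 (median 4.38) without it. These ranges overlapped for every gene, and myt1.S had medians of 4.51 with the tracer and 4.52 without it. elavl3.L, tubb2b.S and neurog2.S had lower medians with the tracer in both sets, for neurog2.S 4.51 in mRNA arrays and 4.63 in controls 1 to 5. snap25.L had the higher median with it in the first set, 5.11 in mRNA arrays and 4.49 in controls 1 to 5. In the second set snap25.L had the lower one. myt1.S turned likewise, with 4.52 in mRNA arrays and 4.38 in controls 1 to 5.

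Between the mRNA arrays and the arrays labelled morpholino, tubb2b.S was lower and snap25.L higher, both just short of the threshold. limma called 0 of the 5 tested genes in a fit that called 13.3% of all tested probe sets, 503 higher and 886 lower in the mRNA arrays (678 higher and 724 lower after quantile normalization). tubb2b.S averaged 6.59 ± 0.47 in the mRNA arrays and 7.73 ± 0.99 in the labelled morpholino arrays (SD, n = 5 each), a difference of -1.13 ± 0.39 (95% interval -1.95 to -0.32, limma adjusted p = 0.0577). snap25.L averaged 5.19 ± 0.47 in the mRNA arrays and 4.21 ± 0.54 in the labelled morpholino arrays (SD, n = 5 each), a difference of 0.99 ± 0.35 (95% interval 0.26 to 1.71, limma adjusted p = 0.0610). Leaving out 1 array could move either across the threshold. snap25.L was called without control 1 (limma adjusted p = 0.0283). tubb2b.S was called without control 3 (limma adjusted p = 0.0432), mRNA array 3 (0.0417) or labelled morpholino 5 (0.0265). Controls do not enter this difference, so leaving 1 out changed only the estimate of the spread and the adjustment. elavl3.L was at 0.49 ± 0.49 (95% interval -0.54 to 1.52), moving to 0.84 without labelled morpholino 2 and to 0.09 without 5, neurog2.S at 0.08 ± 0.22 (95% interval -0.39 to 0.55) and myt1.S at 0.04 ± 0.17 (95% interval -0.32 to 0.39).

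All mRNA arrays lie in the first set and all labelled morpholino arrays in the second. A fit with the set as a block takes the second set by its labels, which the tracer contradicts on 8 arrays, so it settles no direction. In it tubb2b.S was at -1.05 ± 0.57 (adjusted p = 0.988) and snap25.L at 0.08 ± 0.41 (adjusted p = 0.994). elavl3.L was at -0.92 ± 0.56 (adjusted p = 0.988), against 0.49 without the block. limma then called 0 probe sets of 10435, with 451 at an unadjusted p under 0.05. Without the 8 arrays whose tracer goes against the label, elavl3.L was called against labelled morpholino 5 alone, at 2.09 with an adjusted p of 0.0439 in a fit that called 7.28% of probe sets, and tubb2b.S was at 0.33. Without the block and with all 20 arrays, limma called 13.3% of all tested probe sets, the share beside which the next counts stand. Of 14 tested genes of the other neuronal list 2 were called: syt1.L, a synaptic calcium sensor, fell (-1.02 ± 0.20, adjusted p = 0.0156) and sncg.S, a synuclein, rose (1.98 ± 0.64, adjusted p = 0.0449). Of the progenitor list 3 of 26 tested genes were called: otx2.L fell (-1.01 ± 0.20, adjusted p = 0.0156), as did otx2.S (-1.33 ± 0.34, adjusted p = 0.0214), and hes4.S, also the 1 called of 22 tested Notch genes, rose (0.67 ± 0.19, adjusted p = 0.0266). In the same fit 3 of 13 tested multiciliated cell genes fell, dnai1.L, tubb4b.L and tekt2.S, by 0.67 to 1.44 on the log2 scale; none of these calls held with the set as a block.

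**Figure D4:**
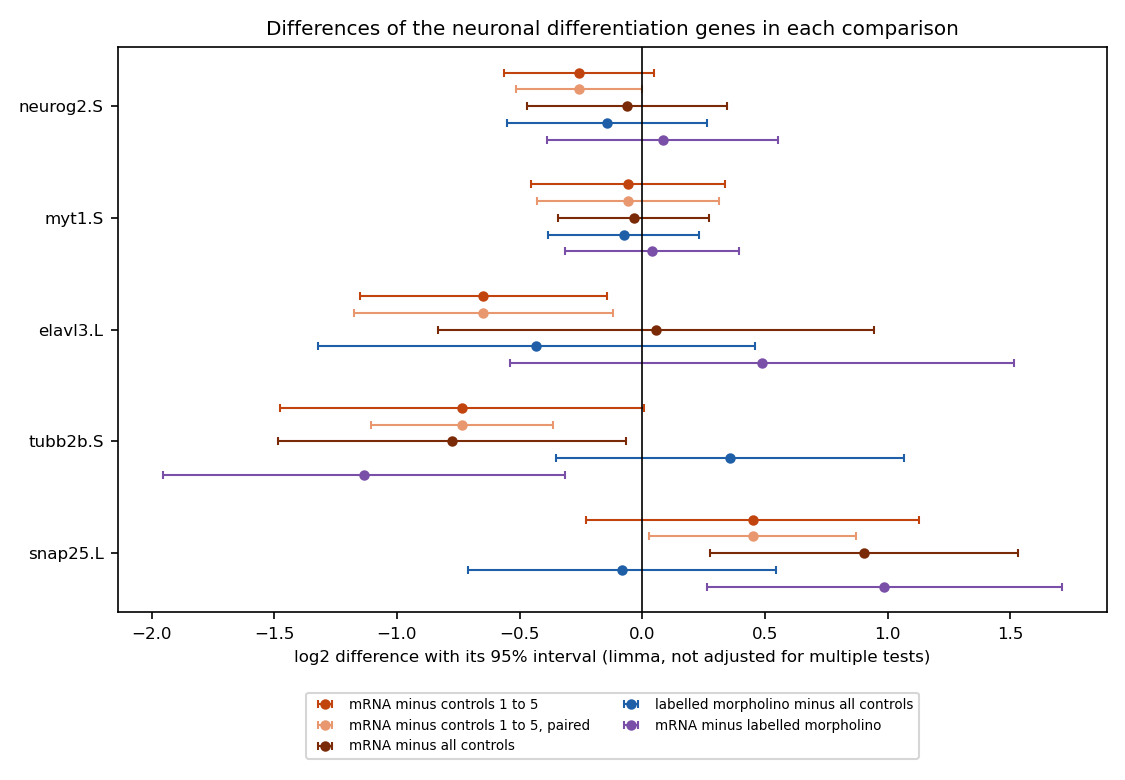
Log2 differences of the 5 tested genes with unadjusted 95% intervals from limma, in the 4 comparisons and in the paired fit of the mRNA arrays with controls 1 to 5. The tubb2b.S points of the mRNA arrays lie between -1.13 and -0.73 in every contrast, and those of elavl3.L lie on both sides of 0.

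The neuronal genes were only partly alike in how they varied over arrays. elavl3.L and tubb2b.S correlated at 0.28 over the 20 arrays and at 0.71 once each set's mean was removed. Within the first set the correlation was 0.77 (Spearman 0.94, and 0.84 by Pearson without the 2 arrays farthest from the median of elavl3.L), and within the second it was 0.70 (Spearman 0.68), which rested on 2 arrays, since without them it was 0.07. elavl3.L and neurog2.S correlated at 0.63 over the 20 arrays and at 0.56 with set means removed. Within the first set they correlated at 0.43 (Spearman 0.33) and within the second at 0.61 (Spearman 0.49). Without the 2 arrays farthest from the median of elavl3.L these were 0.24 and 0.38 by Pearson. myt1.S correlated with the other 4 at -0.29 to 0.17. These are descriptions with no test, over arrays that share treatment, set and RNA quality.

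Among 6719 named probe sets of other genes, the pattern nearest to elavl3.L over the 20 arrays was that of sox2.L, a transcription factor of neural progenitors (r = 0.91, and 0.89 with set means removed), ahead of top3a.L (0.83) and dpysl3.L, a protein of growing axons (0.83). sox2.L was at 9.29, 8.85, 9.96, 9.03 and 8.46 in mRNA arrays 1 to 5, against 9.32, 9.80, 9.83, 8.91 and 9.70 in controls 1 to 5. Its lowest array was labelled morpholino 5, as for elavl3.L, and without the 2 arrays farthest from the median of elavl3.L the correlation within the second set was 0.58, against 0.90 with them. tubb2b.S was nearest to prkab1.S (0.88), smdt1.S (0.87) and tcaf1.L (0.86), and those ranked 2 and 3 for snap25.L were cltc.L, the clathrin heavy chain (0.90), and ppp2r3b.L (0.88). neurog2.S was nearest to gins3.L (0.81), mrpl48.S (0.79) and c6orf136.L (0.79), and myt1.S to tmem126a.L (0.72), mta2.S (0.70) and crkl.S (0.65). For neurod4.L, under the filter, the nearest were bpnt2.S (0.82), arhgap45.L (0.81) and chrnd.L (0.80). neurod4.L ran only from 1.87 to 2.41 over the 20 arrays, with labelled morpholino 2 at 2.41 and the next of its group at 2.00. How far its correlations rest on that array was not tested.

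**Figure D5:**
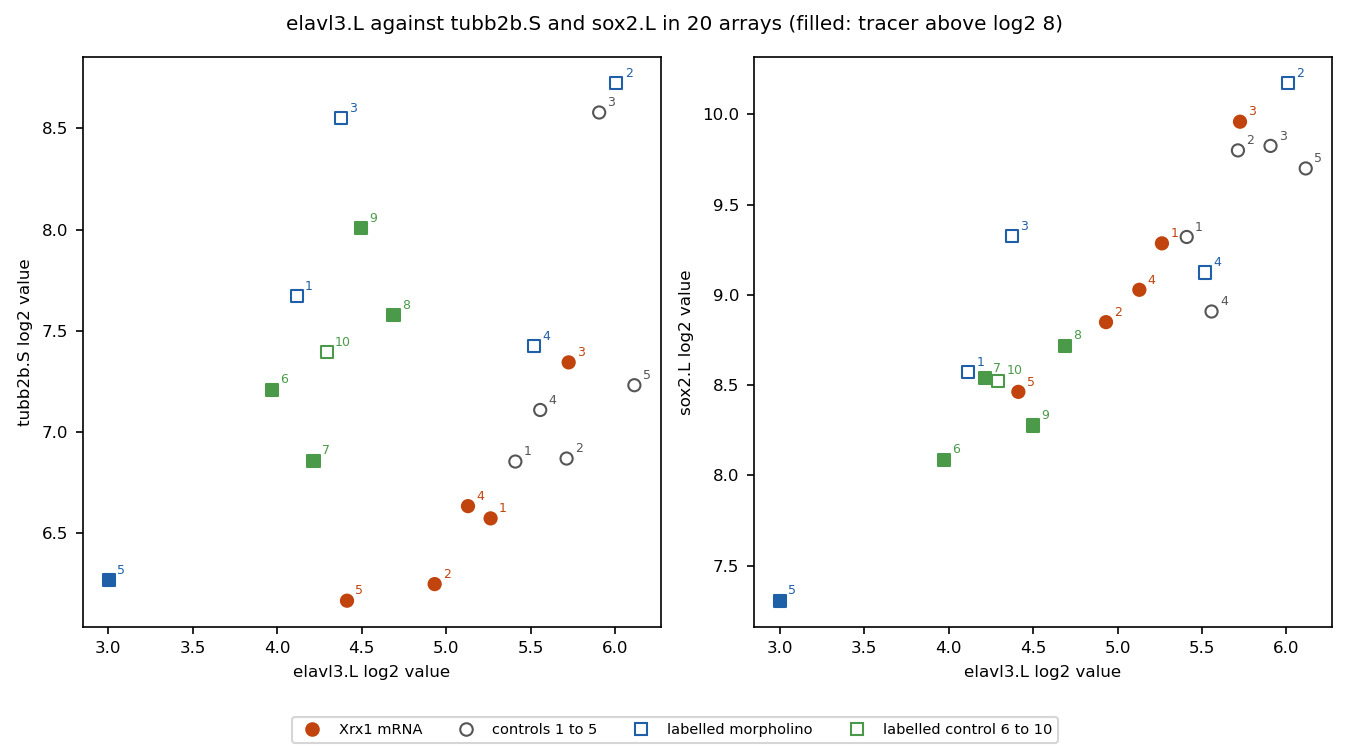
Log2 values of tubb2b.S (left) and sox2.L (right) against elavl3.L in 20 arrays, with the replicate number beside each point and filled points where the tracer was above log2 8. sox2.L follows elavl3.L over all arrays (r = 0.91). The correlation of tubb2b.S with elavl3.L was 0.77 in the first set and 0.70 in the second, where it was 0.07 without 2 arrays.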

How the data were processed

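RNA of 20 samples was hybridised to single-colour Affymetrix Xenopus laevis arrays. The authors deposited log2 values for 15611 probe sets in each array, from 0.749 to 15.4. They come from GCRMA, which the submitters' processing notes name; which version it was is not given in the sources used here, nor which arrays it took together. Arrays have no read depth, and their number limits the precision. Arrays of a group correlated at 0.995 at most, and none was merged. Control probe sets, 120 in number, entered no test. Of 15491 gene probe sets, 9304 had 1 symbol in the platform annotation, 195 several and 5992 none.

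Differences were fitted with limma 3.58.1 in R 4.3.3 (lmFit, eBayes) over 10435 probe sets, with Benjamini-Hochberg adjustment over all of them and a threshold of 0.05. The contrast of mRNA arrays with controls 1 to 5 used these 10 arrays, and the other 3 used 3 group means over 20 arrays. The code was tested on simulated data. Alternatives were the filter, quantile normalization, array weights, blocks for replicate or array set, other choices of controls, and leaving out each array; the paired fits without a filter or without a pair were chosen after seeing the data.

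The genes and the 4 other lists were chosen with earlier results of these data known. Named were all probe sets of the 6 genes, per list and comparison up to 4 called genes or else the 1 with the smallest adjusted p, of which those that bear on the neuronal genes are printed, and the 3 probe sets most correlated with each gene, 1 of which is not reported here.

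Same-number arrays labelled morpholino and controls 1 to 5 correlated at 0.0593 to 0.281, above 0.1 in 4 of 5 pairs, and were not taken as paired. No sequence is shown, since none was given for these probe sets.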

Additional observations from a re-analysis of the deposited data

Results flagged for a closer look

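Of 30 combinations of 10 probe sets with 3 labels (5 mRNA, 5 labelled morpholino and 10 control arrays), 5 had 1 array farther from the rest than Dixon's 95% limit allows, where chance flags about 1 in 20. For the probe sets under the filter these were neurod4.L in labelled morpholino 2 (2.41, with the next array at 2.00), neurog2.S in labelled morpholino 4 (3.09, next 2.42), and snap25.S in mRNA array 5 (2.76, next 2.46) and in labelled morpholino 5 (2.80, next 2.62). The tested neurog2.S probe set had mRNA array 5 at 4.15, with the next at 4.47.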

How the results depend on the processing

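Over 29 or fewer alternatives per result, 463 single-gene values kept their direction and side of the threshold. Of the rest, 12 passed the threshold newly and 34 changed sign. A change of filter, or leaving out an array of a group outside the contrast, cannot move a difference. Many of the 463 were therefore fixed in direction beforehand, and their number is no measure of stability. Where no sentence names a cause, it was not tested. For mRNA against controls 1 to 5 no alternative called any of the 5 genes. With the replicate block (all probe sets called: 7, main 0) the differences stayed as they were, among them -0.65 for elavl3.L and -0.73 for tubb2b.S. Each number holds 1 array of each group, so this block cannot move a difference. myt1.S, at -0.06, ran from -0.13 to 0.083 when 1 array was left out, and was 0.10 without pair 2 in the paired fit.

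For mRNA against all controls, 1 gene, snap25.L, was called with array weights (1.07) and 1 against labelled controls 6 to 10, and leaving out 1 array called 0 to 1. elavl3.L, at 0.06, was -0.65 with the replicate block, with the set as a block and against controls 1 to 5. Those fits all set the mRNA arrays against controls 1 to 5, so by design they share 1 difference. It was -0.41 without the 8 arrays of contrary tracer, and -0.10 to 0.23 with 1 array left out. neurog2.S was 0.14 against labelled controls 6 to 10 and -0.12 to 0.010 with 1 array left out; myt1.S was 0.00025 after quantile normalization and -0.076 to 0.029 with 1 array left out. All probe sets called numbered 0 in the chosen fit, 6 with the stricter filter, 1242 with array weights, 3161 against labelled controls 6 to 10, and 0 to 577 with 1 array left out.

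For labelled morpholino against all controls, leaving out the 8 arrays leaves labelled morpholino 5 alone. Its reference is then controls 1 to 5 and labelled control 10, so set and label are mixed in that fit. There elavl3.L was -2.50 and tubb2b.S -1.07. With the set as a block and within the second set, which give the same difference by design, elavl3.L was 0.27, neurog2.S 0.052 and snap25.L 0.37. snap25.L was 0.062 with array weights and -0.21 to 0.12 with 1 array left out. All probe sets called numbered 0, but 2142 with the replicate block, whose numbers were not taken to pair these arrays, 1628 against controls 1 to 5 and 495 without the 8 arrays.

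For mRNA against labelled morpholino, 1 probe set was called with no filter (snap25.S, 0.26) and 1 after quantile normalization (snap25.L, 1.08). With array weights 2 were called (tubb2b.S, -1.19, and snap25.L, 1.00). The snap25.S probe set lay far under the filter, at 2.74 to 2.99 in mRNA arrays and 2.52 to 2.69 in labelled morpholino arrays. The other snap25.S probe set went the other way, with means of 2.50 and 2.62. Without the 8 arrays elavl3.L was 2.09, against labelled morpholino 5 alone. Leaving out 1 array called 0 to 1: snap25.L without control 1 and tubb2b.S without control 3, mRNA 3 or labelled morpholino 5. With the set as a block elavl3.L was -0.92, neurog2.S -0.31 and myt1.S -0.0043; tubb2b.S was 0.33 without the 8 arrays, and leaving out 1 array gave neurog2.S -0.022 to 0.25 and myt1.S -0.011 to 0.11. All probe sets called numbered 1389, and 2186 with no filter, 772 with the stricter one, 2851 with array weights, 0 with the set as a block, 760 without the 8 arrays and 314 to 1614 with 1 array left out.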
